A study of Mus musculus with 16 samples.

Results

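Hox genes of the 4 mammalian clusters were followed in the developing mouse epididymis, the coiled duct that carries sperm away from the testis and that forms from the embryonic Wolffian duct. Members were all genes with a probe set (a group of array probes for 1 transcript) annotated to a single symbol starting with Hoxa, Hoxb, Hoxc or Hoxd and a number. This gave 53 probe sets for 36 genes, out of 18193 genes with such a probe set. Of the 36, 33 code for protein and 3 are antisense transcripts (Hoxa11os, Hoxb5os and Hoxd3os1). Each gene was represented by its brightest probe set over the 15 epididymis arrays. A further 3 probe sets were annotated to a pair of Hox genes (1 to Hoxb8 and Hoxb7, 2 to Hoxd4 and Hoxd3) and named no member.

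RNA of whole epididymides of wild-type CD-1 males, an outbred mouse stock, was hybridised to Affymetrix expression arrays after 2 rounds of amplification. There were 3 arrays each at gestational days 12, 14, 16 and 18 (gd12, gd14, gd16 and gd18; Theiler stages 20, 22, 24 and 26) and at postnatal day 2 (pnd2; Theiler stage 27). The series description gives every sample as both epididymides of 1 animal, with a different dam for each, but the sample labels give the 6 gd12 and gd14 samples as pools of 3 and the 9 later ones as not pooled. A single array held RNA pooled from 8 whole wild-type newborns, 4 male and 4 female, at postnatal day 0.5, with no strain in the labels used here. Replicates carry the running numbers of the labels: 13 to 15 at gd12, 10 to 12 at gd14, 7 to 9 at gd16, 4 to 6 at gd18 and 1 to 3 at pnd2. The labels of all 16 samples name an RNA isolation protocol written for testes.

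Hox proteins are homeodomain transcription factors that give cells their position along the head-to-tail axis. The genes lie in the clusters in the order in which they are used, low paralogue numbers towards the head and high numbers towards the tail, and genes with the same number in different clusters are paralogues that can stand in for each other. In the male tract of the mouse, the high-numbered Hoxa genes are known for ordered domains along the Wolffian duct, with Hoxa9 and Hoxa10 in the epididymis and Hoxa11 needed for the vas deferens to differ from the epididymis. Hoxa13 and Hoxd13 are known from the genital tubercle, the urogenital sinus and the distal limb. The Hoxd cluster is also known for control from long-range enhancers on either side of it, used in limb, gut and genitalia.

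Signals are linear array units, scaled by the authors so that the trimmed mean of every array was 500.003 to 500.004, and the median probe set read 110 to 134 on 15 of the 16 arrays. The exception was pnd2 replicate 3, with a median of 81.3. On that array the 3′ probe set of the control transcript Gapdh read 63.2 times its 5′ probe set, against 4.33 to 7.18 times on the other 14 epididymis arrays, and for Actb the ratio was 80.7, against 2.40 to 4.14. Markers of Wolffian and epididymal epithelium were at or above the array median for 8 to 10 of 11 genes on every epididymis array, and markers of epididymal mesenchyme for 5 to 7 of 7. In these bulk samples, fewer cells of a type and less RNA per cell cannot be told apart. The test took genes that reached the median signal of an array, or more, on 3 or more epididymis arrays, which left 12220 genes. Of the 36 Hox genes 26 were among them, namely 8 of 10 in Hoxa, 6 of 10 in Hoxb, 6 of 7 in Hoxc and 6 of 9 in Hoxd, so counts over the 26 do not cover all members.

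The 10 Hox genes that did not pass were dim on nearly every array. They were Hoxa4, Hoxa13, Hoxb1, Hoxb7, Hoxb9, Hoxb13, Hoxc13, Hoxd1, Hoxd11 and Hoxd12, a mix of low and high paralogue numbers. Hoxd1, Hoxa13, Hoxb1 and Hoxd12 each had their highest epididymis signal on gd12 replicate 13, at 154, 113, 94.5 and 67.9. Hoxc13, the hair and nail member of its cluster, read 105 in the newborn pool and 3.11 to 51.2 in the epididymis. No detection calls were used here, so these signals are given as levels and not as presence or absence.

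Stage comparisons used limma's moderated test on log2(signal + 16), with all 5 stages in the fit and Benjamini-Hochberg adjustment over the 12220 genes. A gene is called at an adjusted p under 0.05. Over the 5 stages 11 of the 26 Hox genes were called by the F test, against 26.4% of all genes tested. They were Hoxa5, Hoxa9, Hoxa10, Hoxb2, Hoxb3, Hoxb5, Hoxb6, Hoxc5, Hoxc8, Hoxc9 and Hoxd8. In 10 of these 11 the lowest stage mean was that of gd12, and in Hoxd8 it was that of gd14. Without pnd2 replicate 3, 20 of the 26 were called, against 45.8% of all genes. Without gd12 replicate 14, and likewise without gd12 replicate 15, 7 were called, against 19% and 20.9% of all genes.

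Between gd14 and gd12, 8 Hox genes were higher at gd14 and 0 were lower, against 6.69% of all genes called higher and 5.74% called lower. All 8 lay in Hoxa, Hoxb and Hoxc. For each of them the 3 gd14 arrays lay above the 3 gd12 arrays. The 20 tested genes of Hoxa, Hoxb and Hoxc all had a positive log2 change, with a median of 1.10, and the 6 tested Hoxd genes all had a negative one, with a median of -0.50. The median over all genes was 0.03. This split of signs rested partly on single arrays. Without gd12 replicate 14, 17 of the 20 were positive, and Hoxa11os, Hoxb4 and Hoxb5os had log2 changes of -0.19, -0.07 and -0.04. Without gd12 replicate 13, 5 of the 6 Hoxd genes were negative, and Hoxd13 had a log2 change of 0.15. The groups did not overlap, gd14 above gd12, in 12 of the 20 genes (22.2% of all genes tested), and gd14 lay wholly below gd12 in 4 of the 6 Hoxd genes (20.6%).

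**Figure D1:**
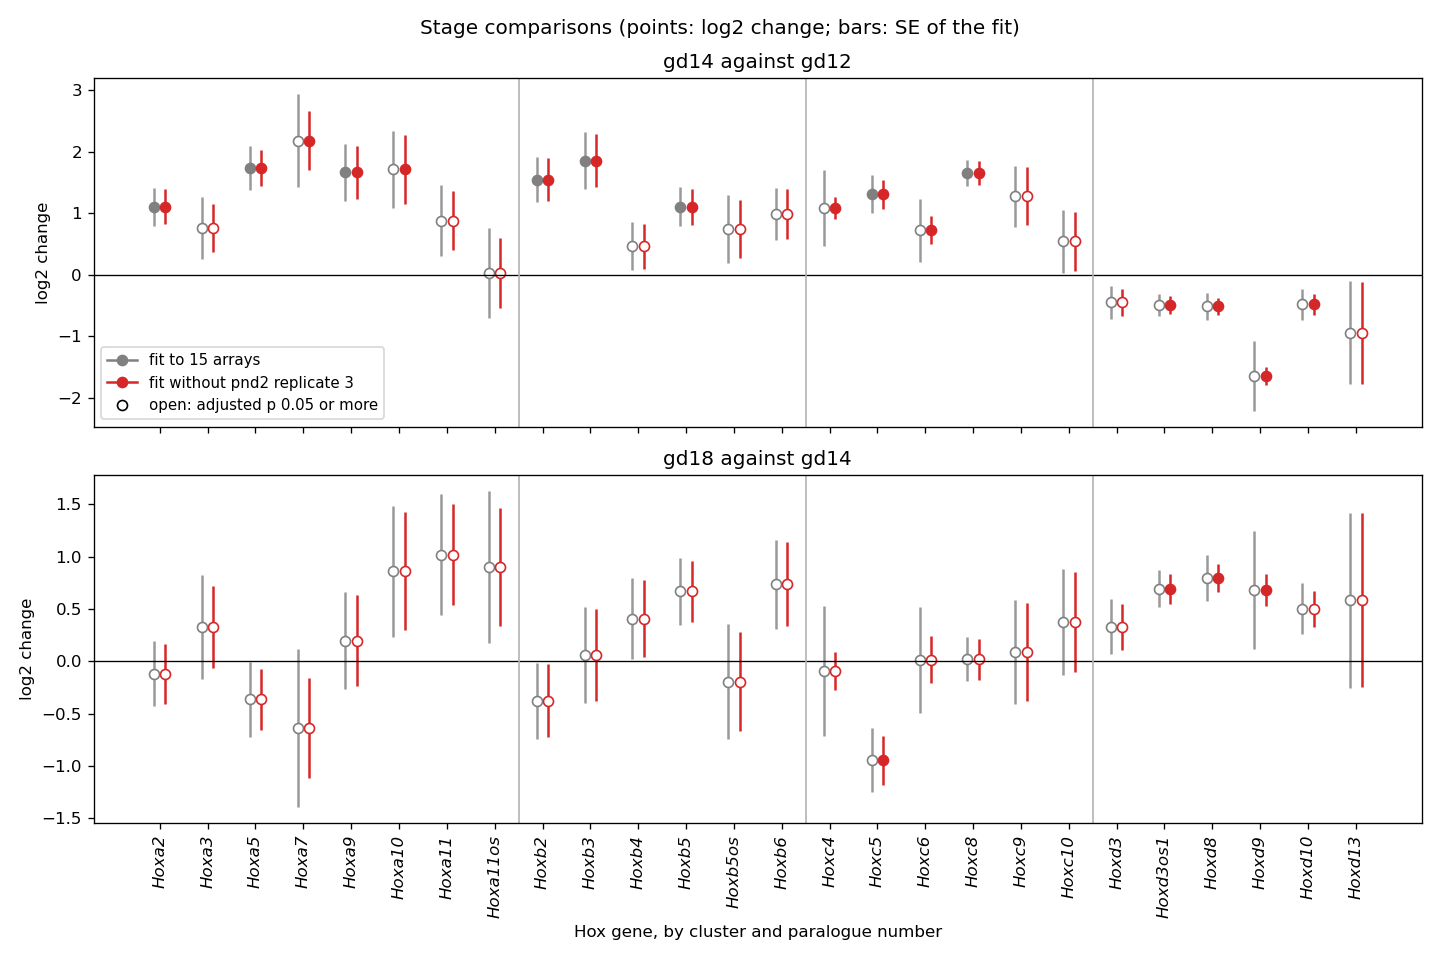
Log2 change of the 26 tested Hox genes (points; bars are the SE of the limma fit), gd14 against gd12 above and gd18 against gd14 below, in the fit to 15 arrays (grey) and the fit without pnd2 replicate 3 (red). Filled points have an adjusted p under 0.05. The 20 genes of Hoxa, Hoxb and Hoxc lie above 0 and the 6 Hoxd genes below 0 in the upper panel in these fits (17 of 20 without gd12 replicate 14, and 5 of 6 without gd12 replicate 13), and the Hoxd genes lie above 0 in the lower panel. Both panels use the same gd14 arrays.

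In the Hoxa cluster, Hoxa2, Hoxa5 and Hoxa9 rose. Hoxa2, which patterns the hindbrain and a pharyngeal arch, read 161, 183 and 157 at gd14, against 85.0, 52.3 and 72.5 at gd12, 2.15-fold higher (log2 change 1.10 ± 0.31, SE, adjusted p = 0.0306). Hoxa5, known from the cervical and thoracic skeleton and the lung, read 1910.2, 2200.0 and 1749.9 at gd14, against 877, 269.7 and 791 at gd12, 3.32-fold higher (log2 change 1.73 ± 0.36, SE, adjusted p = 0.00495). On this probe set of Hoxa5 all gd14 arrays lay well above the gd12 arrays, of which replicate 14 was the lowest. The second Hoxa5 probe set, nearly as bright, had a log2 change of 0.64. It read 1239, 1933 and 1201 at gd14, against 1145, 634 and 1021 at gd12, so the size of the rise depended on the probe set. Hoxa9, the epididymal member named above, read 8096, 8413 and 7784 at gd14, against 7376, 1086 and 2043 at gd12, 3.17-fold higher (log2 change 1.66 ± 0.47, SE, adjusted p = 0.03). For Hoxa9 the distance from the gd14 arrays to the brightest gd12 array was small, and it was the spread inside gd12 that was wide. The dimmer second probe set of Hoxa9 had a log2 difference of 1.22. Hoxa7, a gene of the thoracic level, had the largest of the 26 log2 changes, 2.17 ± 0.76 (SE, adjusted p = 0.0775), with 313, 523 and 396 at gd14, against 192, 17.6 and 97.8 at gd12. It read 6.11 on pnd2 replicate 3, against 174 and 209 on the other pnd2 arrays, and was called in the fit without that array (adjusted p = 0.003). Hoxa10 overlapped, with 894, 731 and 847 at gd14, against 956, 64.9 and 195 at gd12, and was called only in the fit without pnd2 replicate 3 and in that without gd12 replicate 13 among the fits that left out 1 array.

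In the Hoxb cluster, Hoxb2, Hoxb3 and Hoxb5 rose. Hoxb2, a hindbrain segment gene, read 405, 429 and 357 at gd14, against 235, 51.0 and 151 at gd12, 2.92-fold higher (log2 change 1.54 ± 0.36, SE, adjusted p = 0.0111). Hoxb3, known from the hindbrain and pharyngeal arches, read 1638, 1864 and 1676 at gd14, against 950.4, 146 and 695 at gd12, 3.61-fold higher (log2 change 1.85 ± 0.46, SE, adjusted p = 0.0155). Hoxb5, known from the enteric nervous system and the shoulder, read 428, 387 and 381 at gd14, against 259.6, 82.2 and 249.5 at gd12, 2.15-fold higher (log2 change 1.10 ± 0.32, SE, adjusted p = 0.0339). In all 3 genes the low gd12 array was replicate 14, while the other gd12 arrays lay nearer to gd14. The dimmer second probe set of Hoxb3 had a log2 difference of 1.15. Hoxb6, known from the lateral plate mesoderm, did not overlap either but missed the threshold, with 333, 294 and 297 at gd14, against 237, 45.2 and 265 at gd12 and a log2 change of 0.99 ± 0.43 (SE, adjusted p = 0.157). Hoxb4, a gene of blood stem cells and the neck vertebrae, overlapped, with a log2 change of 0.46 ± 0.39 (SE, adjusted p = 0.512), as did the antisense Hoxb5os, with a log2 change of 0.74 ± 0.55 (SE, adjusted p = 0.448).

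In the Hoxc cluster, Hoxc5 and Hoxc8 rose. Hoxc8, which patterns thoracic vertebrae and brachial motor neurons, read 6628, 6671 and 7085 at gd14, against 2787, 1648 and 2141 at gd12, 3.15-fold higher (log2 change 1.66 ± 0.21, SE, adjusted p = 0.00016). That was the smallest adjusted p of the 26 in this comparison, and the gap between the stages was wider than the spread inside either. Hoxc5, a gene of the neck region, read 2466, 2051 and 2263 at gd14, against 1079, 511 and 1326 at gd12, 2.47-fold higher (log2 change 1.31 ± 0.31, SE, adjusted p = 0.0116). Hoxc4, Hoxc6, Hoxc9 and Hoxc10 were not called. Hoxc4 read 1658, 1552 and 1815 at gd14, against 956, 635 and 789 at gd12, with no overlap, and its adjusted p was 0.303 in the fit to 15 arrays and 0.000402 without pnd2 replicate 3. On that array Hoxc4 read 152, against 2101 and 1300 on the other pnd2 arrays. Hoxc6, also a gene of the thoracic level, likewise passed without it (adjusted p = 0.0254).

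The calls in this comparison depended on single arrays. Leaving out each of the 15 arrays in turn gave 4 to 16 Hox genes, and Hoxa5, Hoxb2 and Hoxc8 were called in every one of those fits. The count was 13 without gd12 replicate 13 (11.1% of all genes), 4 without gd12 replicate 14 (7.66%), 4 without gd14 replicate 10 and 4 without gd14 replicate 11 (8% each), and 5 without gd14 replicate 12 (8.14%). Without pnd2 replicate 3, which belongs to neither stage and enters through the shared estimate of the spread, 12 were called higher and 4 lower, against 15.8% and 14.1% of all genes. Of the 13 members with several probe sets, 11 had probe sets whose stage means all differed in the same direction between gd14 and gd12. The exceptions were Hoxa3 and Hoxa11os.

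Between gd14 and gd12 the Hoxd genes were called only in some fits. Hoxd9, the Hoxd paralogue of Hoxa9, read 1067, 1014 and 969 at gd14, against 2632, 3728 and 3400.1 at gd12, which is 3.13-fold lower and without overlap. Its log2 change of -1.65 had an SE of 0.56 and an adjusted p of 0.072 in the fit to 15 arrays, and an SE of 0.15 and an adjusted p of 1.97e-06 without pnd2 replicate 3. On that array Hoxd9 read 262, against 2328 and 2201 on the other pnd2 arrays. The other Hoxd genes had smaller log2 changes. Hoxd8, a gene of the trunk and limb, read 857, 1135 and 973 at gd14, against 1302, 1593 and 1356 at gd12, with a log2 change of -0.52 ± 0.22 (SE, adjusted p = 0.15). Hoxd10, known from limb and lumbar motor neurons, read 673, 515 and 439 at gd14, against 812, 642 and 819 at gd12, with a log2 change of -0.48 ± 0.24 (SE, adjusted p = 0.234). The antisense Hoxd3os1 read 1417, 1612 and 1456 at gd14, against 2081, 2325 and 1936 at gd12, with a log2 change of -0.49 ± 0.18 (SE, adjusted p = 0.0851). Without pnd2 replicate 3 these 3 genes and Hoxd9 were called lower, with adjusted p of 0.0102, 0.0426 and 0.0177 for Hoxd8, Hoxd10 and Hoxd3os1. Both probe sets of Hoxd8 and both of Hoxd3os1 were lower at gd14, while the probe sets shared by Hoxd4 and Hoxd3 had log2 changes of 0.10 and -0.16.

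Promoters are shown for 2 pairs of paralogues, Hoxa9 with Hoxd9 and Hoxa10 with Hoxd10, because the members of each pair had log2 changes of opposite sign between gd14 and gd12. Of the 36 members, 21 had a promoter among the 32851 RefSeq promoters of GRCm38.p6, each running from 250 bases before to 50 bases after the annotated start. Capitals mark CpG dinucleotides, and all 4 are written 5′ to 3′ on the strand of the gene, Hoxa9 at chr6:52227321-52227620 (minus strand), Hoxd9 at chr2:74697513-74697812 (plus strand), Hoxa10 at chr6:52240805-52241104 (minus strand) and Hoxd10 at chr2:74691641-74691940 (plus strand).
Hoxa9: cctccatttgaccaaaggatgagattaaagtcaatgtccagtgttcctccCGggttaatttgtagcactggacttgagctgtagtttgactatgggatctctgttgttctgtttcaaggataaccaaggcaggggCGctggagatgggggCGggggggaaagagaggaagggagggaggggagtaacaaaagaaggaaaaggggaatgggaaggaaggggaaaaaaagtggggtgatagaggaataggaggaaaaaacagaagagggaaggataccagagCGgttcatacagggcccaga
Hoxd9: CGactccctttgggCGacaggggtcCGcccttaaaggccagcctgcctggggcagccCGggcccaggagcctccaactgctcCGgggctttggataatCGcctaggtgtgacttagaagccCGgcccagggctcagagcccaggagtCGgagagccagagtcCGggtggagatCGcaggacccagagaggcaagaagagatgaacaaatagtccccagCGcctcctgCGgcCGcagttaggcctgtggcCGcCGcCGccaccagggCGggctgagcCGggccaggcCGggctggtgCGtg
Hoxa10: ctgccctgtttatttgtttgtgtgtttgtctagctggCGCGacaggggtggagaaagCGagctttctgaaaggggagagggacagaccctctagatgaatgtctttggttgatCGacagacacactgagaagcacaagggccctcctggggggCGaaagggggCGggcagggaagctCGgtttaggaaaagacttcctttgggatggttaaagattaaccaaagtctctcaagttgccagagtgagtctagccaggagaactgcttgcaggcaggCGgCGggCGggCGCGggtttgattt
Hoxd10: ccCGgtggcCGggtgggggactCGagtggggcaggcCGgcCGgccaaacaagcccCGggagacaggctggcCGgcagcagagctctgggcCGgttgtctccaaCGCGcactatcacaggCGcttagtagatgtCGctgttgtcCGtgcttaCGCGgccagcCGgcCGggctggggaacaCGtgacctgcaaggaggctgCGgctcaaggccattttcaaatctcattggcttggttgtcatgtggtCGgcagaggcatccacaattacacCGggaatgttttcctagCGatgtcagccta
The window of Hoxa9 held 4 CpGs, and that of Hoxd9 held 20. The window of Hoxa10 held 12, and that of Hoxd10 held 22. The median was 15 over the 23 Hox promoters and 7 over all promoters. Of 4 motifs searched on both strands, the TATA box core TATAAA was in 13.6% of all promoters, the CCAAT box (CCAAT) in 37.4%, the Hox-Pbx site TGATNNAT in 8.85% and the nuclear receptor motif AGGTCA in 16.3%. In the windows printed, a CCAAT box and a nuclear receptor motif were found in Hoxd10 and no match in the other 3. These are matches of letters and not binding sites.

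The 3 gd12 arrays differed from each other in the Hox genes more than in the median gene. The median within-stage SD (log2) of the 26 Hox genes was 0.98 at gd12, against 0.23 for all genes tested, while at gd14 it was 0.13, against 0.16. At gd12 the SD was over 1 in 12 of the 26 Hox genes and in 2.96% of all genes. Replicate 13 read at least 2-fold above the mean of the other gd12 arrays in 13 Hox genes (3.32% of all genes) and at least 2-fold below it in 0 (2.84%). Replicate 14 read at least 2-fold below the mean of the others in 15 Hox genes (3.96%) and above it in 0 (1.44%). Replicate 15 was past 2-fold in 1 gene above (2.59%), Hoxb6, and in 4 genes below (1.73%). These are descriptions of single arrays and carry no test. Over all 36 members with no filter, replicate 13 was the highest gd12 array in 25 (38.5% of 18193 genes) and replicate 14 the lowest in 24 (39.4%).

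**Figure D2:**
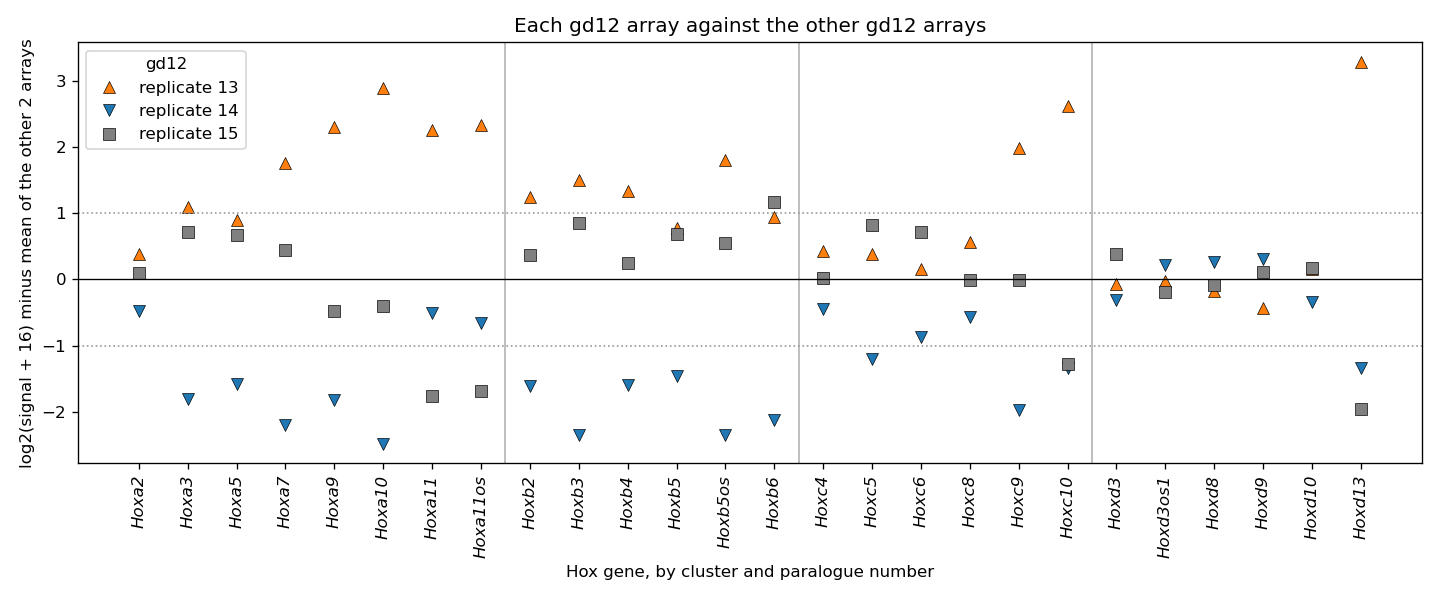
Each gd12 array minus the mean of the other gd12 arrays, in log2(signal + 16), for the 26 tested Hox genes ordered by cluster and paralogue number. Dotted lines mark 2-fold. Replicate 13 lies above the line in 13 genes and replicate 14 below it in 15, while Hoxd3 to Hoxd10 stay within the lines on all 3 arrays.

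Among the tested Hoxa and Hoxc genes, the gd12 pattern differed by paralogue number. Over all clusters, the median deviation of replicate 13 was 2.27 over the 8 tested genes of paralogue groups 9 to 11. It was 0.77 over 9 genes of groups 5 to 8 and 0.76 over 8 genes of groups 1 to 4. The 8 genes include Hoxd9 and Hoxd10, with no such excess, and none from Hoxb. Of the dim, untested members, Hoxb9 read 22.5, 52.7 and 97.7 and Hoxd11 read 31.9, 19.7 and 18.4 on replicates 13, 14 and 15. Hoxa10 read 956, 64.9 and 195 on replicates 13, 14 and 15. Hoxc10, a gene of the lumbar level, read 1198, 178 and 184. Hoxa11 read 339, 83.3 and 39.7, and the antisense Hoxa11os from the same locus read 239.9, 48.5 and 24.0. In Hoxa11, Hoxa11os, Hoxc10 and Hoxd13 replicates 14 and 15 were both low. In the Hoxb genes, whose tested members had paralogue numbers of 2 to 6, replicate 15 was close to or above replicate 13 for Hoxb5 and Hoxb6, and replicate 14 alone was low. Hoxb3 read 950.4, 146 and 695, Hoxb6 read 237, 45.2 and 265 and Hoxb5os read 1206, 163 and 670.1 on the same 3 arrays. Hoxc9, which specifies thoracic motor neurons, lay between these patterns with 428, 55.5 and 161, and Hoxa3 read 202, 41.0 and 167.

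Of the 6 tested Hoxd genes, 5 lay within 2-fold of the mean of the other gd12 arrays on each of the 3 arrays, and Hoxd13 did not. Hoxd9 read 2632, 3728 and 3400.1, Hoxd3 read 298, 264 and 371 and Hoxd10 read 812, 642 and 819 on replicates 13, 14 and 15. The deviations of Hoxd3, Hoxd3os1, Hoxd8, Hoxd9 and Hoxd10 ran from -0.43 to 0.39. Hoxd13, the digit and genital tubercle gene, read 459, 40.1 and 26.0, and its replicate 13 stood 3.29 above the mean of the others, the largest deviation of the 26 genes. Hoxd13 was at or above the array median on 3 of the 15 epididymis arrays, so it passed the filter through the arrays on which it was high. With no filter, 3 of all 9 Hoxd genes were at least 2-fold above the other arrays on replicate 13 (7.4% of all genes), and of the dim ones Hoxd1 read 154, 8.25 and 57.2 and Hoxd12 read 67.9, 13.6 and 6.35.

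Markers of other cell types differed between the same 3 arrays, given as summed signals on replicates 13, 14 and 15. The 10 gonad supporting cell markers summed to 10257, 16407 and 15031, with 9 at or above the array median on each array. The 7 germ cell markers summed to 13942, 21787 and 21141, with 7 at or above the median. The 6 limb and external genitalia mesenchyme markers summed to 1637, 749 and 891, the 8 metanephric kidney markers to 7042, 3825 and 4459, and the 5 skin markers to 3066, 1423 and 1732. Replicate 13 was the lowest array for the sums of gonad supporting and germ cell markers and the highest for the sums of limb, kidney and skin markers. It was also the highest for macrophages (4153, 1814 and 2540), erythroid cells (64905, 56237 and 42207), endothelium (5329, 4751 and 4156), hindgut and spinal cord. For gonad interstitial cells, cartilage and skeletal muscle it was the lowest, and for the other lists neither. The counts of limb, kidney and skin markers at or above the median did not follow their sums. They were 3, 3 and 2 limb, 4, 6 and 3 kidney, and 2, 3 and 2 skin markers on replicates 13, 14 and 15. Lor made up most of the skin sum, with 2352, 803 and 1199, while the basal keratinocyte genes Krt14, with 11.7, 73.9 and 50.6, and Trp63, with 37.6, 119 and 98.8, were lowest on replicate 13. Nphs1 and Slc12a1 of the kidney list and Tbx4 of the limb list were highest on replicate 14. The 5 hindgut markers had 0 at or above the median on all 3 arrays, and so did the 5 spinal cord markers. Among single genes, Foxd1, a marker of kidney stroma, read 1167, 148 and 158, and Isl1, of genital and hindlimb mesenchyme, read 565, 220 and 39.0. The 11 Wolffian and epididymal epithelium markers summed to 10432, 7624 and 11595. The part of these cells in the Hox values was not tested.

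The marker sums also moved between the stages. Gonad supporting cell markers summed to 3344 to 3618 at gd14, against 10257 to 16407 at gd12, and germ cell markers to 1055 to 1764 at gd14, against 13942 to 21787 at gd12. Epididymal mesenchyme markers summed to 78253 to 87125 at gd14, against 30016 to 39517 at gd12. The arrays of these stages did not overlap in any of the 3 sums. Wolffian and epididymal epithelium markers summed to 14781 to 16438 at gd14, against 7624 to 11595 at gd12. Sums of macrophage, mesothelium, gonad interstitial, bladder and hindgut markers were also higher at gd14 without overlap. Those of Mullerian duct, cartilage, erythroid, limb and skin markers were lower without overlap. The part of any of these cells in the rise of the Hox genes was not tested.

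From gd14 on, neighbouring stages were compared step by step. Neither gd16 against gd14, nor gd18 against gd16, nor pnd2 against gd18 had a call among the 26 in limma's fit to 15 arrays, against 0.0982%, 0.336% and 0.589% of all genes. At an unadjusted p under 0.05 there were 3, 1 and 1. With 1 array left out, 0 or 1 of the 26 were called in each of these steps. The share of all genes called in those fits, in order, ran from 0.0164% to 1.13%, 0.0491% to 1.81% and 0.0245% to 1.9%. Other fits called up to 4 in gd16 against gd14 and up to 1 in each of the later steps. Shares of all genes are not given for those other fits. Over the longer interval, gd18 against gd14, 0 were called (2.8% of all genes), with 3 at an unadjusted p under 0.05. With 1 array left out, 0 to 4 were called over that interval, against 1.38% to 8.95% of all genes. Other fits, again without such shares, called up to 8. The later of the stages lay wholly above the earlier one in 6 genes and wholly below it in 4 for gd16 against gd14 (9.33% and 12.2% of all genes), in 4 and 2 for gd18 against gd16 (12.6% and 8.51%) and in 1 and 1 for pnd2 against gd18 (10.3% and 10.6%). For gd18 against gd14 there were 9 and 3 (16.1% and 16.2%). The median log2 change of the 26 was 0.33 in this comparison, against -0.02 for all genes.

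Within gd18 against gd14 the 6 tested Hoxd genes had positive log2 changes (5 of 6 without gd18 replicate 4), with a median log2 change of 0.63, while the 20 genes of Hoxa, Hoxb and Hoxc had a median of 0.07 and 13 positive values. This comparison shares the gd14 arrays with gd14 against gd12, so the values are given side by side and not as separate evidence. Hoxd8 read 1690.2, 1735 and 1725 at gd18, against 857, 1135 and 973 at gd14, with a log2 change of 0.80 ± 0.22 (SE, adjusted p = 0.074). Hoxd3os1 read 2496, 2879.6 and 1975 at gd18, against 1417, 1612 and 1456 at gd14, with a log2 change of 0.69 ± 0.18 (SE, adjusted p = 0.0502). Hoxd9 read 1402, 1967 and 1601 at gd18, against 1067, 1014 and 969 at gd14, with a log2 change of 0.68 ± 0.56 (SE, adjusted p = 0.737). The arrays of the stages did not overlap in any of these 3 genes. In the fit without pnd2 replicate 3 all 3 were called higher, and Hoxc5 lower, against 5.52% and 3.44% of all genes. Hoxc5 read 1092, 1211 and 1190.0 at gd18, against 2466, 2051 and 2263 at gd14, 1.92-fold lower without overlap, with an adjusted p of 0.15 in the fit to 15 arrays and 0.0201 without that array.

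In gd16 against gd14 the 8 genes of paralogue groups 9 to 11 had a median log2 change of 0.67 and groups 1 to 4 one of -0.18, against -0.03 for all genes. In gd18 against gd14 the medians were 0.59 and 0.20, against -0.02 for all genes. Both comparisons use the same gd14 arrays, and the 8 genes include Hoxd9 and Hoxd10, so these values are no separate evidence from those of the Hoxd genes above. Hoxd10 read 978, 1087 and 1091 at gd16, against 673, 515 and 439 at gd14, 1.94-fold higher without overlap, with an adjusted p of 0.211 in the fit to 15 arrays and 0.0127 without pnd2 replicate 3. Hoxa10 read 1981, 1616 and 1756 at gd16, against 894, 731 and 847 at gd14, with a log2 change of 1.10 ± 0.63 (SE, adjusted p = 0.974). Hoxa11 read 592, 391 and 394 at gd18, against 231, 189.5 and 223 at gd14, with a log2 change of 1.02 ± 0.58 (SE, adjusted p = 0.522). The Hoxa10 and Hoxa11 arrays of the stages named did not overlap, and neither gene was called in these comparisons.

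**Figure D3:**
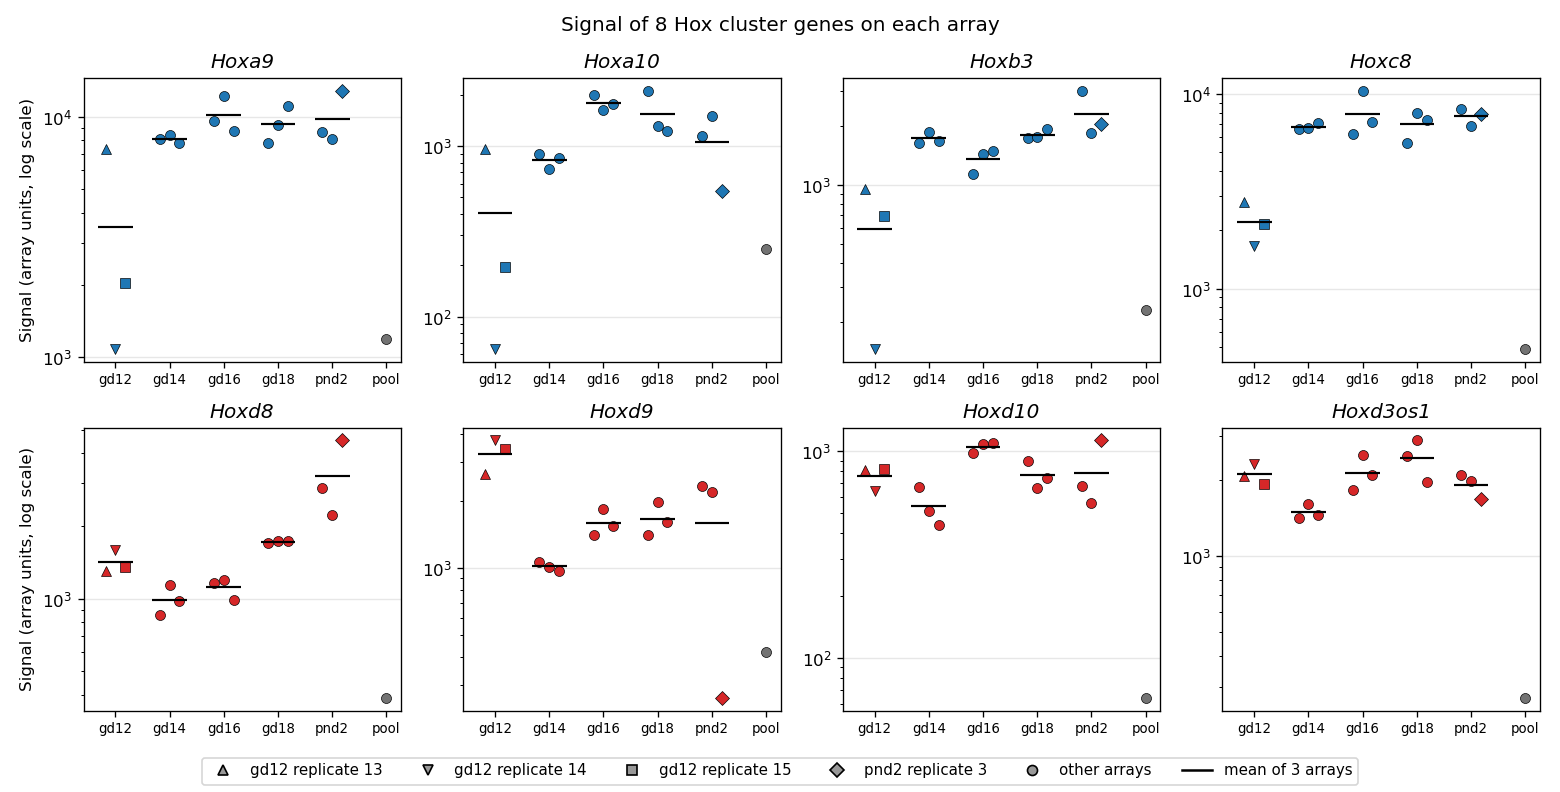
Signal (array units, log axis) of 8 Hox genes on each of the 16 arrays, 4 from Hoxa, Hoxb and Hoxc (blue) and 4 from Hoxd (red), by stage and with the newborn pool at the right; bars are means of 3 arrays. Hoxa9, Hoxa10 and Hoxb3 are spread widely at gd12, whereas the 4 Hoxd genes drawn are close together there and have lower means at gd14. Hoxd9 on pnd2 replicate 3 reads 262, against 2328 and 2201 on the other pnd2 arrays.

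Over the whole course, pnd2 against gd12, 10 Hox genes were higher and 0 lower, against 14.4% and 13% of all genes. They were Hoxa2, Hoxa9, Hoxa10, Hoxb2, Hoxb3, Hoxb5, Hoxb6, Hoxc8, Hoxc9 and Hoxd8, and the gd12 arrays are those of the earlier comparison. The pnd2 arrays lay wholly above the gd12 arrays in 8 of the 26 and wholly below in 1 (17.6% and 19.1% of all genes). Hoxb3 read 2991, 1825 and 2027 at pnd2, against 950.4, 146 and 695 at gd12, 4.66-fold higher (log2 change 2.22 ± 0.46, SE, adjusted p = 0.00252). Hoxb6 read 577, 615 and 445 at pnd2, against 237, 45.2 and 265 at gd12, 3.41-fold higher (log2 change 1.77 ± 0.43, SE, adjusted p = 0.00686). Hoxb5 read 644, 559 and 796 at pnd2, against 259.6, 82.2 and 249.5 at gd12, 3.50-fold higher (log2 change 1.81 ± 0.32, SE, adjusted p = 0.000734). The arrays of the stages did not overlap in these 3 genes. Hoxc8 read 8389.8, 6863 and 7850.3 at pnd2, against 2787, 1648 and 2141 at gd12, 3.56-fold higher (log2 change 1.83 ± 0.21, SE, adjusted p = 2.18e-05). Hoxd8, the single Hoxd gene called, read 2864, 2224 and 4506 at pnd2, against 1302, 1593 and 1356 at gd12, 2.16-fold higher (log2 change 1.11 ± 0.22, SE, adjusted p = 0.0018), and the highest of these was pnd2 replicate 3. Hoxa10 and Hoxc9 passed the test with overlapping arrays. The size of the rise depended on the probe set. Second probe sets had log2 differences of 0.61 for Hoxa9, 1.72 for Hoxa10, 0.67 for Hoxb3 and 0.75 for Hoxd8. The probe sets used gave 1.92, 1.96, 2.22 and 1.11 for these genes. Without pnd2 replicate 3, 13 were higher and 1 lower (18.8% and 17% of all genes), the lower one being Hoxd9 with a log2 change of -0.51. Without gd12 replicate 14, 6 were called, against 20.5% of all genes.

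The full course of some members is given by stage means. Hoxa9 averaged 3502 ± 3389 at gd12, 8097 ± 315 at gd14, 10222 ± 1839 at gd16, 9391 ± 1695 at gd18 and 9862 ± 2573 at pnd2 (SD, n = 3 each). Hoxc8 averaged 2192 ± 571 at gd12, 6794 ± 252 at gd14, 7899 ± 2138 at gd16, 6974 ± 1233 at gd18 and 7701 ± 774 at pnd2 (SD, n = 3 each). No step after gd14 was called for either gene. Hoxb5 averaged 197 ± 99.6 at gd12, 399 ± 25.7 at gd14, 463 ± 70.1 at gd16, 644 ± 56.5 at gd18 and 666 ± 119.9 at pnd2 (SD, n = 3 each). These means were higher at each later stage. Without pnd2 replicate 3 the pnd2 mean of Hoxb5 was 601, below its gd18 mean. Hoxc5 averaged 972 ± 418 at gd12, 2259.9 ± 208 at gd14, 1289 ± 69.7 at gd16, 1164 ± 63.2 at gd18 and 1011 ± 429 at pnd2 (SD, n = 3 each), with the highest mean at gd14. Hoxa5 also had its highest mean at gd14, with means of 646 ± 329 at gd12, 1953 ± 228 at gd14, 1547 ± 103 at gd16, 1512 ± 124 at gd18 and 950.5 ± 325 at pnd2 (SD, n = 3 each). Without pnd2 replicate 3 the pnd2 mean was 763 for Hoxc5, below its gd12 mean, and 1137 for Hoxa5, above its gd12 mean. Hoxd9 averaged 3253 ± 563 at gd12, 1017 ± 49.2 at gd14, 1593 ± 224 at gd16, 1657 ± 287 at gd18 and 1597 ± 1158 at pnd2 (SD, n = 3 each), and 2264 at pnd2 over the 2 arrays other than replicate 3.

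Replicate 3 of pnd2 stood apart in some Hox probe sets and not in others. It read at least 2-fold above the mean of the other pnd2 arrays in 2 of the 26 Hox genes and at least 2-fold below it in 7, against 12.5% and 23.9% of all genes. Both shares were near those of all genes, so this is no trait particular to the Hox genes. The 2 were Hoxa3 and Hoxb5os, and the 7 were Hoxa7, Hoxa10, Hoxa11, Hoxa11os, Hoxc4, Hoxc6 and Hoxd9. The 4 probe sets of Hoxa3 ranged from -1.09 to 1.68 in this difference, so probe sets of 1 gene went opposite ways on that array. For Hoxa9 the probe set used stood 0.61 above the other arrays, and the second one 2.15 below.

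Against the newborn pool, the epididymis held more Hox signal in most tested members at the later stages. This is a comparison with 1 array, without a test. On all 15 epididymis arrays 7 of the 26 Hox genes lay above the pool and 0 below, against 24.2% and 18.4% of all genes, so the share above was close to that of all genes. They were Hoxc5, Hoxc8, Hoxc10, Hoxd3, Hoxd3os1, Hoxd8 and Hoxd10. By stage mean, 11, 19, 20, 23 and 21 of the 26 were at least 2-fold above the pool at gd12, gd14, gd16, gd18 and pnd2, against 18.6%, 18.6%, 18.5%, 18.1% and 17.8% of all genes tested. With no filter on signal, 11, 20, 20, 23 and 21 of all 36 members were, against 15%, 14.5%, 14.6%, 14.4% and 13.8% of 18193 genes.

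**Figure D4:**
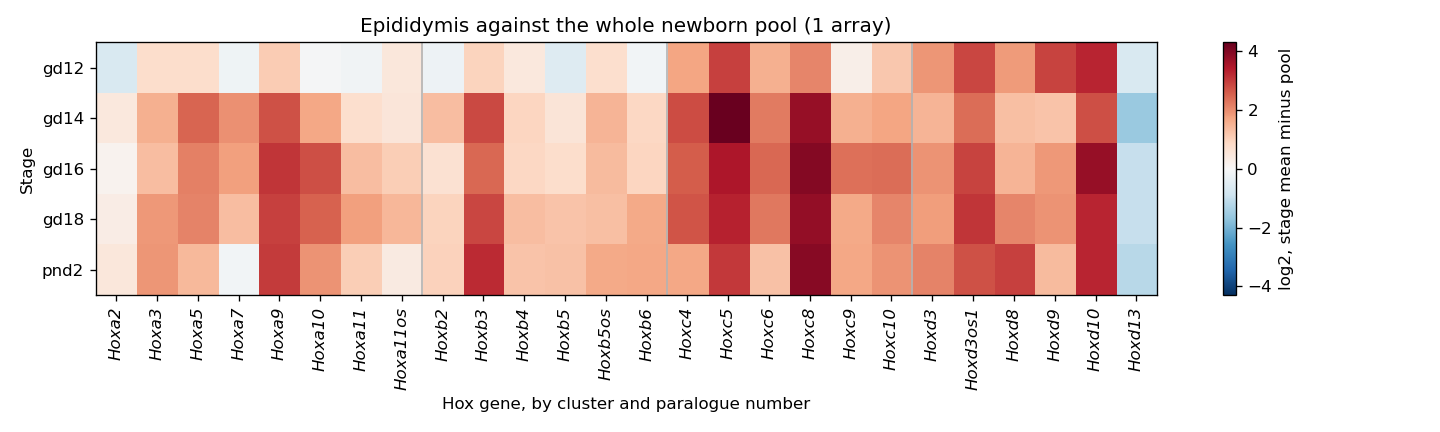
Stage mean of log2(signal + 16) minus the newborn pool (1 array) for the 26 tested Hox genes, by stage; red is higher in the epididymis and blue higher in the pool. Hoxc5, Hoxc8, Hoxd3os1 and Hoxd10 are among the many genes that are red at every stage, and Hoxd13 is blue throughout. At gd12, Hoxa2, Hoxa7, Hoxa10, Hoxa11, Hoxb2, Hoxb5 and Hoxb6 are below 0, and most other Hoxa and Hoxb genes are paler red than later.

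The largest differences from the pool were those of Hoxc5, Hoxc8 and Hoxd10. Hoxc5 read 511 to 2466 in the epididymis, against 102 in the pool. Hoxc8 read 1648 to 10309 in the epididymis, against 491 in the pool. Hoxd10 read 439 to 1125 in the epididymis, against 63.98 in the pool. Hoxb3 was above the pool on 14 of 15 arrays, with 146 on gd12 replicate 14 as the exception, against 230 in the pool. Hoxa9 likewise had 14 of 15 arrays above the 1194 of the pool, and gd12 replicate 14, at 1086, was below. Hoxd13 went the other way, with 2 of 15 epididymis arrays above the pool's 147, namely gd12 replicate 13 at 459 and gd18 replicate 4 at 213.

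The cofactors that bind DNA together with Hox proteins, the TALE homeobox genes, were followed as a list. Of 9 genes 7 were tested, and between gd14 and gd12 Meis1 rose and Pknox2 fell (6.69% and 5.74% of all genes). Meis1 read 6054, 6703 and 6098 at gd14, against 2852, 1729 and 2231 at gd12, 2.81-fold higher (log2 change 1.49 ± 0.22, SE, adjusted p = 0.000488) and without overlap. Pknox2 read 687, 592 and 612 at gd14, against 822, 969 and 1056 at gd12, 1.49-fold lower (adjusted p = 0.0291). At pnd2 against gd12, Pbx3 and Pknox2 were lower (13% of all genes). Pbx3 read 2322, 1661 and 547 at pnd2, against 5820.2, 2488 and 2307 at gd12, with overlap, and pnd2 replicate 3 was its lowest array. Without that array 1 of the 7 was higher and 1 lower at pnd2 (18.8% and 17% of all genes). Meis1, Meis2 and Pbx3 were highest at gd12 on replicate 13, Meis2 with 8270.3, 3451 and 3174 on replicates 13, 14 and 15. The remaining tested genes, Pbx2, Meis3, Pknox1 and Pknox2, were highest on replicate 15. Of 18193 genes with no filter, 38.5% were highest on replicate 13, so the share in this list was near that of all genes.

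Genes that set the state of the Hox clusters were followed as 2 more lists. Of 8 tested activators (Kmt2a, Kmt2b, Men1, Ash2l, Wdr5 and Rbbp5 of the trithorax-type methylase complexes and the demethylases Kdm6a and Kdm6b), 0 were called between gd14 and gd12, and without pnd2 replicate 3, 1 was higher and 2 lower. At pnd2 against gd12 the complex members Men1, Ash2l and Rbbp5 were lower. Of 15 tested Polycomb genes, which keep Hox genes silent, Phc3 was higher and Phc1 lower between gd14 and gd12, and at pnd2 against gd12 Phc3 was higher and Suz12, Cbx2, Cbx8, Phc1 and Phc2 were lower. Phc3 was 2.57-fold higher at pnd2 than at gd12 (log2 change 1.36 ± 0.23, SE, adjusted p = 0.000468). Of 14 tested genes that flank the clusters, 0 were called between gd14 and gd12, with a median log2 change of 0.04. Without pnd2 replicate 3, 2 of the 14 flanking genes were higher and 3 lower between gd14 and gd12, and 2 of the Polycomb genes were higher and 6 lower. Without that array, 15.8% of all genes were called higher and 14.1% lower between these stages. In the fit to 15 arrays the shares were 6.69% and 5.74%, and 14.4% and 13% at pnd2 against gd12. With so few genes in each list, these counts are no result about the lists.

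Patterning genes of limb, tail and external genitalia, structures in which high-numbered Hox genes also act, had 7 of 14 genes tested. Between gd14 and gd12, Shh and Tbx3 rose and Tbx4 fell (6.69% of all genes called higher and 5.74% lower). Tbx4, a hindlimb and genital mesenchyme gene, read 22.5, 35.4 and 79.5 at gd14, against 282, 345 and 209 at gd12, 5.04-fold lower without overlap (adjusted p = 0.00145). Tbx3 read 1509, 1913 and 1275 at gd14, against 510.1, 92.6 and 462 at gd12, 5.18-fold higher (adjusted p = 0.0213), and replicate 14 was its lowest gd12 array as it was for most Hox genes. At gd12, Tbx4 was highest on replicate 14 and Tbx2 on replicate 15. The other tested genes of this list, Shh, Msx1, Msx2, Tbx3 and Tbx18, were highest on replicate 13, as were Hoxa10 and Hoxd13. Of 18193 genes with no filter, 38.5% were highest on that array.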

How the data were processed

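The deposited values are linear intensities, 1 for each probe set on each array. GCOS, Affymetrix's array software, is named in the submitters' processing notes; its version, the signal method and any detection calls are not given in the labels or files. The mean without the lowest and highest 2% of the 45101 probe sets was 500.003 to 500.004 on the 16 arrays, so each array was scaled by 1 factor and no further normalization was added. Symbols came from the platform annotation, which listed 34945 probe sets with 1 symbol, 932 with several and 9160 with none, beside 64 controls. All 36 Hox symbols were found in the reference gene table (GRCm38.p6).

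Signals were taken as log2(signal + 16), each gene was represented by its brightest probe set, and genes that reached an array's median signal on 3 or more epididymis arrays were tested. Fold changes are on that scale, which understates changes of dim genes. Tests between stages used limma (version 3.58.1, R 4.3.3; moderated tests with an intensity trend, 1 mean per stage, 15 arrays in 1 fit), adjusted by Benjamini-Hochberg over 12220 genes. The script was tested on simulated data. The newborn pool and the single gd12 arrays were compared without a test. The number of arrays limits the precision. Named genes were the members called in the F test or in a stage comparison, or past 2-fold on a gd12 array, together with the remaining tested members and genes of the listed partners, regulators, neighbours, patterning genes and cell markers. The members and lists were chosen with earlier results of these data known. Alternatives were other scalings, constants, filters, probe set rules and variance models, array weights, fewer arrays, and each array left out in turn.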

Additional observations from a re-analysis of the deposited data

How the results depend on the processing

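Counts of Hox genes called among the 26 tested depended on the estimate of the spread between arrays. For array weights, smaller sets of arrays and the other settings listed next, shares of all genes are not given. Those counts are therefore no result about Hox genes alone. With array weights the F test called 19, gd14 against gd12 17 (14 higher, 3 lower), gd16 against gd14 3, gd18 against gd16 1, pnd2 against gd18 1 and gd18 against gd14 4. Without gd14 replicate 10, gd16 replicate 9 and pnd2 replicate 3 together, gd14 against gd12 gave 13, gd16 against gd14 1 and gd18 against gd14 3. With only the 6 arrays compared, gd16 against gd14 gave 4, gd18 against gd16 1, gd18 against gd14 8 and pnd2 against gd12 2. In gd18 against gd14, quantile normalization gave 2, a constant of 64 gave 1 and the mean of all probe sets gave 1. For gd12 replicate 15, genes at least 2-fold above the other gd12 arrays came to 0 with a constant of 64 and to 3 with no filter. With no filter 1 Hox gene lay below the newborn pool on all 15 arrays. Leaving out 1 array at a time gave 7 to 20 by the F test, 4 to 16 in gd14 against gd12, 6 to 14 in pnd2 against gd12, 0 to 4 in gd18 against gd14, and 0 to 1 in gd16 against gd14, gd18 against gd16 and pnd2 against gd18. The extremes of these Hox counts came without gd12 replicates 14 and 15, gd14 replicates 10 and 11 and pnd2 replicates 2 and 3. The share of all genes called moved as well with 1 array left out. It ran from 19% to 45.8% by the F test and from 7.66% to 29.9% in gd14 against gd12. In pnd2 against gd12 it ran from 20.5% to 35.7%, and in gd18 against gd14 from 1.38% to 8.95%. Hox genes above the newborn pool on all epididymis arrays numbered 10 without pnd2 replicate 3, with no share of all genes given for that setting. The cause was not tested. No paired analysis was possible because the stages share no replicate numbers. Of the Hox genes called in the fit to 15 arrays, none had its log2 change turn in sign under the alternatives in which it was tested. Genes not called did turn: in gd14 against gd12, 4 members did so over 9 of the 26 alternatives, namely Hoxa11os, Hoxb4, Hoxb5os and Hoxd13. In pnd2 against gd18, 15 members did so over 11 alternatives, among them Hoxd9, at 0.46 without pnd2 replicate 3 and -0.55 with it. In pnd2 against gd12, 8 did so over 14, among them Hoxc4, at 1.06 and called higher without pnd2 replicate 3 and -0.04 with it. Differences between signals below about 16 are strongly compressed on the log2(signal + 16) scale, which limits what can be read from the 10 dim members.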

Other observations

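Some values belong to no comparison above. The probe set shared by Hoxb8 and Hoxb7 had a log2 difference of 0.59 between gd14 and gd12 and a mean signal of 205 over the 15 epididymis arrays, and the probe set of Hoxb7 alone had a mean signal of 33.6. The dim second probe set of Hoxa11os, with a mean signal of 10.9, had a log2 difference of -0.04 between gd14 and gd12. The TATA box core was found in the promoters of Hoxa11os, Hoxd13 and a second start of Hoxa10. The Hox-Pbx letters were found in those of Hoxa2, Hoxb1 and Hoxd11. The 7 skeletal muscle markers summed to 3945 on pnd2 replicate 2, with 4 at or above the array median, against 158 and 165 on the other pnd2 arrays.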
